A study of Rattus norvegicus with 18 samples.

Results

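FRT/TSHR and FRTL5 are established rat thyroid cell lines, and the 3 arrays of FRT/TSHR taken 17 h after thyroid-stimulating hormone (TSH) were compared with the 3 arrays of FRTL5 at that time. The 6 arrays were picked by their titles from the 18 of the study. All 8740 probe sets other than the manufacturer's controls entered, out of 8799 in the table. The labels call FRTL5 differentiated and FRT/TSHR de-differentiated thyrocytes, and the name of the latter says that it carries a TSH receptor. Where that receptor comes from, what drives it, and whether the line is 1 clone are not given in the labels used here. FRTL5 cells had spent 5 days in the TSH-free medium called 5H and then received bovine TSH at 0.1 U/L. FRT/TSHR cells grew in Coon's modification of Ham's F12 and received bovine TSH at 1 U/L. Both lines were without serum for 12 h before the hormone. The comparison asks which differences between the lines remain when both have had the hormone for 17 h. Dose and medium differ with the line, so the effects of line, dose and medium cannot be told apart. The unstimulated (basal) cultures of the same lines, 3 arrays each, show what differed without hormone. The series text calls the replicates biological, and the titles number them 1 to 3.

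A thyroid follicular cell takes up iodide through the sodium/iodide symporter, encoded by Slc5a5, and uses it to iodinate thyroglobulin, encoded by Tg, from which thyroid hormone is released. TSH acts through a G protein coupled receptor, encoded by Tshr, which raises cyclic AMP. The transcription factors Pax8, Nkx2-1 and Foxe1 are together typical of follicular cells, which are also a polarised epithelium with keratins and junction proteins.

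Differences are given as FRT/TSHR minus FRTL5 on the log2 scale of the deposited values, with the standard error (SE) of the limma model. A probe set is called when its p-value, after Benjamini-Hochberg adjustment across every probe set tested, is under 0.05. At 17 h 1786 probe sets were called, or 20.4% of those tested. Of these 1005 (11.5% of all) were higher in FRT/TSHR and 781 (8.94%) were lower. A difference of at least 2-fold was called in 791 (9.05%), 462 higher and 329 lower. At least 8-fold was reached by 89, 54 higher and 35 lower. The arrays of the lines did not overlap in 2898 probe sets (33.2%). Each of 4736 genes was read through its probe set with the highest mean, and 23.1% of the genes were called, 12.8% higher and 10.3% lower, with a median difference of -0.05. In a culture measured in bulk, fewer cells of a type and less RNA per cell cannot be told apart.

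The FRTL5 arrays numbered 1, at all 3 times, had a beta-actin signal 1.13 to 1.22 higher (log2) at the 3' end than at the 5' end, against 0.28 at most in the other 15 arrays. Without these arrays 1849 probe sets were called at 17 h, and the counts of each gene list without them are given below where they move by about 1.5 times or more. The part of RNA quality in single values was not tested. No C cell marker (4 measured), mesenchymal marker (7) or endothelial marker (3) was called by limma, and 2 of them had an unadjusted p under 0.05. Their summed linear signal was 118 to 156 in FRTL5 and 119 to 151 in FRT/TSHR for C cells, 510 to 851 in FRTL5 and 505 to 759 in FRT/TSHR for mesenchyme, and 119 to 125 in FRTL5 and 123 to 131 in FRT/TSHR for endothelium. Of 6 leukocyte markers Lyz2 (-0.53 ± 0.14) and Ptprc (-0.33 ± 0.11) were called, with summed signals of 186 to 211 in FRTL5 and 156 to 191 in FRT/TSHR. These 2 calls were lost in 2 of 6 and 4 of 6 fits that each omitted an array. The values have no true zero and no detection call.

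Short promoter windows of 5 genes are printed because each holds an element also found in other genes described below. Epcam, Gstm5 and Gstp1 were high in FRT/TSHR, and Fdps and Hsd17b7 are cholesterol genes whose line difference changed. Each window runs from 250 bases before to 50 bases after the annotated start in RefSeq GRCr8, 5' to 3' along the gene. Capitals mark TGACTCA, the AP-1 element, in the first 3 windows and CCAAT or its reverse complement ATTGG, the CCAAT box, in the last 2. The windows are Epcam at chr6:12649629-12649928 on the minus strand, Gstm5 at chr2:198219519-198219818 on the plus strand, Gstp1 at chr1:210769656-210769955 on the minus strand, Fdps at chr2:176804767-176805066 on the minus strand, and Hsd17b7 at chr13:84722705-84723004 on the minus strand.
Epcam: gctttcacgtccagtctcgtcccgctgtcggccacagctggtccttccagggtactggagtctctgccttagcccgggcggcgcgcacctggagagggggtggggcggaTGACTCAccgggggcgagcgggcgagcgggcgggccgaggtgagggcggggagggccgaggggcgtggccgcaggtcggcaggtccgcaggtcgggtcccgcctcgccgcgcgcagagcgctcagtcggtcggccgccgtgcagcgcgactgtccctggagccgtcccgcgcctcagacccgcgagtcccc
Gstm5: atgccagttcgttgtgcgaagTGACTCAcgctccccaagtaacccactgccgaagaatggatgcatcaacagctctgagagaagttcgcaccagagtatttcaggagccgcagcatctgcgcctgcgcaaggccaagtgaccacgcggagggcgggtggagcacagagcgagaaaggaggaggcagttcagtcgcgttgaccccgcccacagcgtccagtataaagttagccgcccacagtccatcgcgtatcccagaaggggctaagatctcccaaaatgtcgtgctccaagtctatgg
Gstp1: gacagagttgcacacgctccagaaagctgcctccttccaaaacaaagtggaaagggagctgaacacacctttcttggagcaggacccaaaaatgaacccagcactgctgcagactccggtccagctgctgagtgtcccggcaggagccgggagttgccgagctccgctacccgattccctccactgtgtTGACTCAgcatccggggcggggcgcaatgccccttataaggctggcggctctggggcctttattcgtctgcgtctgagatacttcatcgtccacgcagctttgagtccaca
Fdps: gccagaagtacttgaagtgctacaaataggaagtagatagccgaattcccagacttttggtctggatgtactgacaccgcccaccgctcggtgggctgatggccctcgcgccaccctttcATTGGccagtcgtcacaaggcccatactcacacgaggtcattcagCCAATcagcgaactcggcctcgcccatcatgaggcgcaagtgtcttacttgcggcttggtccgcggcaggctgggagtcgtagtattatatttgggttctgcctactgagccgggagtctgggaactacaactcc
Hsd17b7: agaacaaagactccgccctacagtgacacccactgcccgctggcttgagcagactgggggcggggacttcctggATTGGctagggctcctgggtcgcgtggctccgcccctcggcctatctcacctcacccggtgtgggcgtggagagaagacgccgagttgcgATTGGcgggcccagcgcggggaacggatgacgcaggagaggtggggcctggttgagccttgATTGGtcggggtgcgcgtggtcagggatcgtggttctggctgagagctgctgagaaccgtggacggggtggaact
On either strand, 4.53% of all 27457 windows held the AP-1 element and 37.7% the CCAAT box. Among the 3879 windows of measured genes these shares were 4.1% and 38.3%. Of genes called higher in FRT/TSHR 30 of 504 with a window (5.95%) held the AP-1 element, and of genes called lower 8 of 395 (2.03%). Among the 15 genes with the largest positive differences 3 of 10 held it, namely Epcam, Gstm5 and Krt8. Of the antioxidant genes 3 of 26 held the AP-1 element. The antioxidant element core TGACNNNGC (N is any base) was in 9 of these 26, Gstm5 and Gstp1 among them. It was in 14.2% of the windows of measured genes, 19.6% of those called higher and 10.4% of those called lower. In Gstp1 the capitals together with the next letters, gc, also match that core. Of the cholesterol genes 11 of 14 held a CCAAT box. The sterol element TCACNCCAC was found in 0 of these 14, and its short form TCACNCCA in 1. In all 11 motifs were searched, and the 2 motifs and 5 windows shown were picked after the matches were seen. A match describes letters and is not a binding site.

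Genes of thyroid function separated the lines at 17 h, but not all of them. Tg and Slc5a5 were high in FRTL5 and low in FRT/TSHR, Foxe1 was lower in FRT/TSHR, and Pax8 had no called difference. Of 14 measured genes of thyroid differentiation 7 were called lower and 1 higher, with a median difference of -1.11 at 17 h and -1.08 at basal. That is 57.1% called at 17 h, against 23.1% of all genes. Tg read 9.76, 10.83 and 11.12 in FRTL5 and 4.46, 4.13 and 4.01 in FRT/TSHR. Every FRTL5 array stood far above every FRT/TSHR array. The difference was -6.37 ± 0.37 (adjusted p = 1.65e-09), or 82.5-fold, and the other 3 probe sets of Tg were called lower too. At basal it was -7.04 ± 0.37, and the change between the times, 0.67 ± 0.52, was not called. Slc5a5 read 9.14, 9.69 and 9.91 in FRTL5 and 5.75, 5.95 and 5.67 in FRT/TSHR. Its FRTL5 arrays were high and its FRT/TSHR arrays low, with no overlap. The difference was -3.79 ± 0.18 (adjusted p = 2.15e-10), or 13.8-fold. At basal Slc5a5 had read 6.73, 7.15 and 7.0 in FRTL5 and 5.66, 5.93 and 5.69 in FRT/TSHR. The basal difference was only -1.20 ± 0.18, and the widening by -2.58 ± 0.26 was itself called (adjusted p = 0.000298).

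Kcnj15, an inwardly rectifying potassium channel, also widened. It read 9.25, 9.05 and 9.15 in FRTL5 and 5.82, 5.93 and 5.55 in FRT/TSHR at 17 h. The lines did not overlap, with a difference of -3.38 ± 0.16 against -1.69 ± 0.16 at basal, and the change of -1.69 ± 0.23 was called (adjusted p = 0.00357). Foxe1, a forkhead factor, read 7.76, 9.25 and 8.90 in FRTL5 and 6.61, 7.09 and 6.84 in FRT/TSHR. FRTL5 was higher in every array, least so in array 1, by a difference of -1.79 ± 0.34 (adjusted p = 0.000918). Lrp2, the endocytic receptor megalin, differed by -1.45 ± 0.18, and the potassium channel Kcnj16 by -1.18 ± 0.29. Dio1, a deiodinase, differed by -1.03, a call lost in 3 of 6 fits that each omitted an array. Kcnq1, another potassium channel, was the 1 gene of the list called higher, by 1.62 ± 0.17.

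For Pax8 and the Nkx2-1 probe set with the highest mean, the result in the main design turned on array 1 of FRTL5. Pax8, a paired-box factor, read 8.37, 9.23 and 9.38 in FRTL5 and 8.80, 8.63 and 8.55 in FRT/TSHR. Array 1 of FRTL5 lay below all FRT/TSHR arrays and the other 2 FRTL5 arrays above them. The difference of -0.33 ± 0.23 was not called (adjusted p = 0.375), whereas without the FRTL5 arrays numbered 1 it was -0.65 and called (adjusted p = 0.0037). At basal Pax8 was lower in FRT/TSHR, with a difference of -1.21 ± 0.23. Nkx2-1, a homeobox factor, read 6.0, 7.79 and 7.72 in FRTL5 and 5.82, 5.86 and 6.0 in FRT/TSHR. Array 1 of FRTL5 was level with the highest FRT/TSHR array, and the other 2 were well above. The difference of -1.28 ± 0.50 was not called (adjusted p = 0.0874). It was called with the replicate number as a block (adjusted p = 0.00774) and, at -1.86, without the FRTL5 arrays numbered 1 (adjusted p = 8.96e-08). The second probe set of Nkx2-1 was called with all arrays, at -3.25 ± 0.14. The mean over the probe sets of Nkx2-1 gave -2.26 and was called by limma (adjusted p = 3.46e-06).

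The 4 probe sets of Tshr disagreed. The one with the highest mean read 6.59, 6.85 and 6.71 in FRTL5 and 6.90, 6.89 and 6.35 in FRT/TSHR. The lines overlapped, with a difference of -0.002 ± 0.15 (adjusted p = 0.996). Another read 6.62, 8.06 and 7.75 in FRTL5 and 3.70, 3.71 and 3.72 in FRT/TSHR. There every FRTL5 array was above every FRT/TSHR array, with a difference of -3.77 ± 0.32. The remaining 2 gave -1.64 ± 0.14 and -0.91 ± 0.22, and the mean over the 4 gave -1.58. Which part of the transcript each probe set reads, and whether it would read the receptor that FRT/TSHR is named for, was not tested, so these values do not check that label.

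Of 26 measured genes of cyclic AMP and G protein signalling 5 were called lower in FRT/TSHR and 0 higher by limma (1 higher at an unadjusted p under 0.05), with a median of -0.10. The share called was 19.2%, against 23.1% of all genes in either direction and 10.3% lower. Gnas, the stimulatory G protein alpha subunit, read 13.05, 12.94 and 13.11 in FRTL5 and 11.93, 11.97 and 12.21 in FRT/TSHR. FRTL5 was higher in every array. The difference was -0.99 ± 0.13 (adjusted p = 2.41e-05), and its other 3 probe sets were called lower as well. The protein kinase A regulatory subunits Prkar1a and Prkar2b differed by -0.77 ± 0.11 and -0.96 ± 0.16. The inhibitory subunit Gnai2 differed by -0.67 ± 0.22, a call lost in 5 of 6 fits that each omitted an array, and 1 of its other 2 probe sets was called lower.

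**Figure D1:**
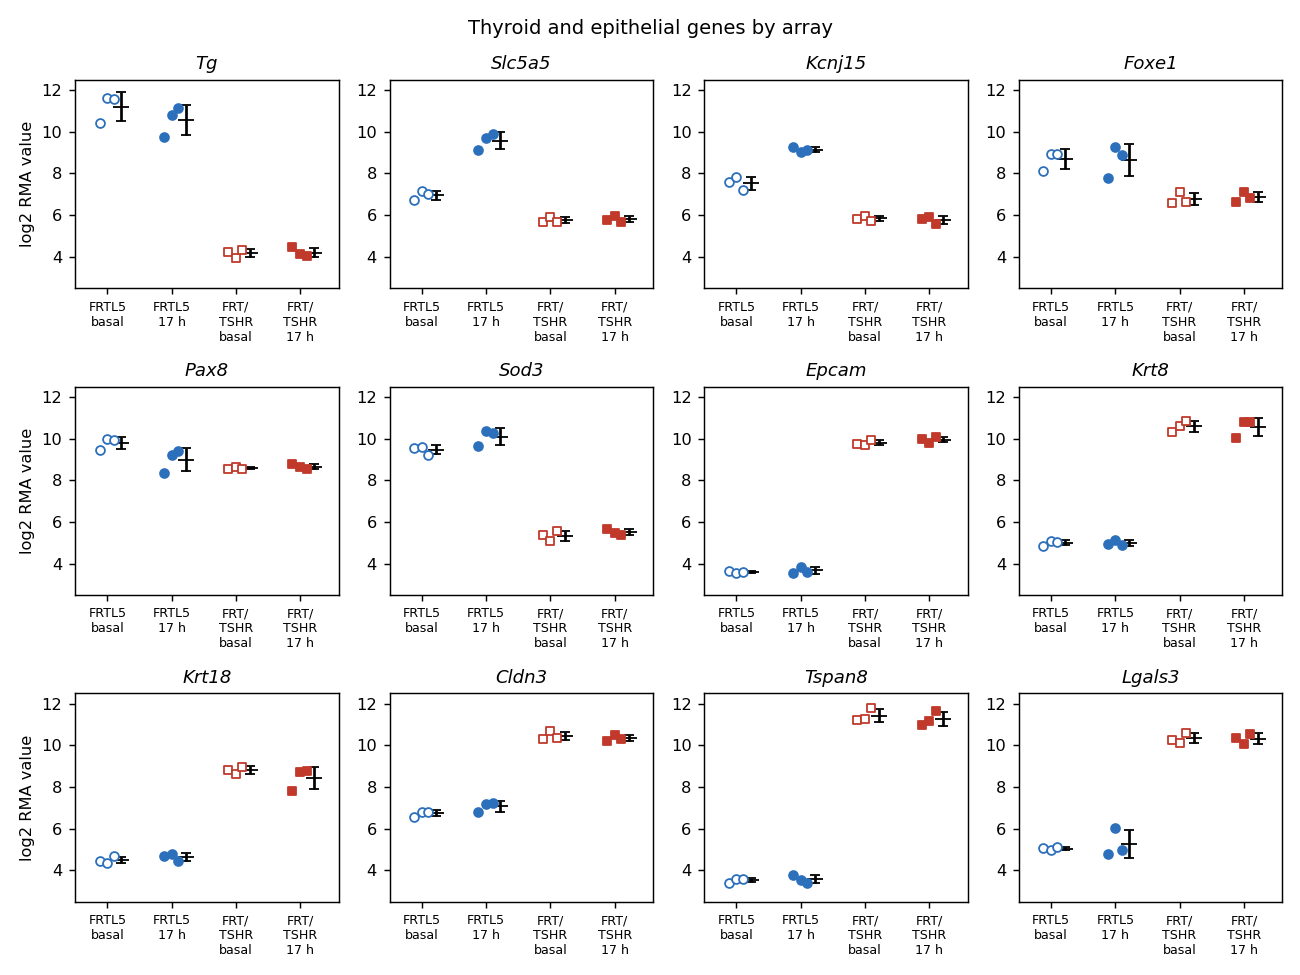
Log2 RMA values of 12 genes in the basal and 17 h arrays (points, in the order of replicates 1 to 3; blue circles FRTL5, red squares FRT/TSHR; open basal, filled 17 h), with bars for the mean and SD of 3 arrays. Tg is high in FRTL5 at both times, Slc5a5 differs by -3.79 at 17 h against -1.20 at basal, and Epcam is high in FRT/TSHR at both times.

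Keratins and surface proteins of simple epithelia were higher in FRT/TSHR, the line called de-differentiated. Of 17 measured genes of keratins and junctions 11 were called higher and 1 lower at 17 h, with a median of 1.31. That is 70.6% called at 17 h, against 23.1% of all genes. At basal 10 of the 17 were called higher and 4 lower, with a median of 1.10. Epcam, the epithelial cell adhesion molecule whose promoter window is printed above, read 3.56, 3.85 and 3.6 in FRTL5 and 9.99, 9.80 and 10.07 in FRT/TSHR. The groups were tight and far apart, with a difference of 6.28 ± 0.11 (adjusted p = 2.46e-15), or 77.8-fold. Krt8, a keratin of simple epithelia, read 4.94, 5.15 and 4.87 in FRTL5 and 10.04, 10.78 and 10.81 in FRT/TSHR. Krt18, its partner in the filament, read 4.71, 4.81 and 4.44 in FRTL5 and 7.80, 8.70 and 8.76 in FRT/TSHR. For both keratins all FRT/TSHR arrays were above all FRTL5 arrays, by 5.56 ± 0.18 for Krt8 and 3.77 ± 0.20 for Krt18. Krt19 differed by 1.37 ± 0.30, while its second probe set gave 0.51 and was not called.

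Muc1, a cell surface mucin, read 5.30, 5.46 and 5.28 in FRTL5 and 8.60, 9.0 and 9.39 in FRT/TSHR. FRT/TSHR was higher in every array, by 3.65 ± 0.20. The tight junction genes Cldn3, Cldn7 and Ocln were higher by 3.27, 1.67 and 0.98, the cadherin Cdh16 by 2.07 and ezrin, encoded by Ezr, by 1.31. Gjb1, a gap junction protein, was the 1 gene called lower, at -0.89, a call lost in 1 of 6 fits that each omitted an array. The gene Cdh1 was not found by name among the probe sets. Of 24 mesenchymal markers 3 (S100a4, Fn1 and Tpm2) were called higher and 4 lower, with a median of -0.06. Cdh2, a cadherin of neural and mesenchymal cells, read 5.82, 6.16 and 6.12 in FRTL5 and 4.76, 5.01 and 4.87 in FRT/TSHR. FRTL5 was higher in every array, and the difference was -1.15 ± 0.13 (adjusted p = 6.15e-06). Fn1, fibronectin, was higher in FRT/TSHR by 2.56 ± 0.29, with 3 of its other 4 probe sets called higher by smaller amounts. Vim, the mesenchymal filament vimentin, differed by 0.01 ± 0.31 and was not called.

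**Figure D2:**
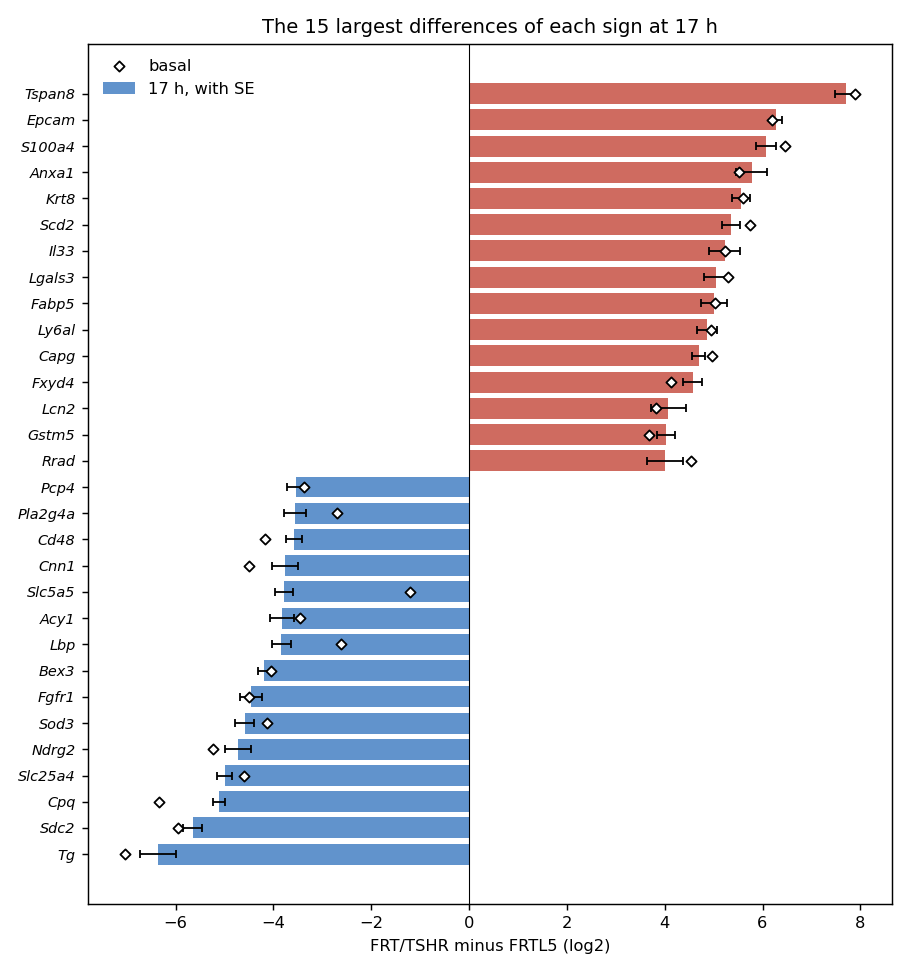
Line difference at 17 h (bars, log2 with SE) for the 15 genes with the largest positive and the 15 with the largest negative called differences, with the basal difference of the same genes as diamonds. Tspan8 and Tg lie at the ends (7.70 and -6.37), and the diamond of Slc5a5 lies far from the end of its bar.

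Tspan8, a tetraspanin, read 3.77, 3.56 and 3.40 in FRTL5 and 11, 11.17 and 11.65 in FRT/TSHR. S100a4, a calcium-binding protein, read 5.11, 5.10 and 4.88 in FRTL5 and 10.62, 11.35 and 11.33 in FRT/TSHR. In neither gene did the lines come near each other. Tspan8 differed by 7.70 ± 0.21, 208-fold, and S100a4 by 6.07 ± 0.21, 67.1-fold. Of 18 annexins, S100 proteins and galectins 10 were called higher and 3 lower, with a median of 0.70. That is 72.2% called, against 23.1% of all genes. Anxa1, a phospholipid-binding annexin, differed by 5.78 ± 0.32, Lgals3 (galectin-3) by 5.06 ± 0.26 and S100a10 by 4.0 ± 0.41. Anxa6 differed by -1.90 ± 0.16, while its second probe set gave -0.04 and was not called. Scd2, a stearoyl-CoA desaturase, was higher by 5.35 ± 0.18, with 4 of its other 5 probe sets called higher. Fabp5, a fatty acid binding protein, was higher by 5.01 ± 0.27.

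Il33, a cytokine held in the nucleus, read 3.35, 3.37 and 3.08 in FRTL5 and 8.5, 7.84 and 9.12 in FRT/TSHR. Its FRT/TSHR arrays were spread widely but all lay above FRTL5, by 5.22 ± 0.31. Capg, an actin-capping protein, Ly6al, and Fxyd4, a regulator of the sodium pump, were higher by 4.70, 4.87 and 4.57. Lcn2, which binds iron carriers, and Rrad, a small GTPase, were higher by 4.08 and 4.01.

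The genes lowest in FRT/TSHR after Tg were of several kinds. Sdc2, a heparan sulfate proteoglycan of the cell surface, read 9.13, 8.80 and 9.59 in FRTL5 and 3.62, 3.52 and 3.42 in FRT/TSHR. Cpq, a carboxypeptidase, read 9.87, 10.11 and 9.78 in FRTL5 and 4.87, 4.83 and 4.70 in FRT/TSHR. Both were high in all FRTL5 arrays and low in all FRT/TSHR arrays. Sdc2 differed by -5.66 ± 0.20. Cpq differed by -5.12 ± 0.12, less than at basal (-6.33 ± 0.12), and that change of 1.22 ± 0.17 was called (adjusted p = 0.00357). Slc25a4, a mitochondrial ADP/ATP carrier, differed by -5.0 ± 0.15. Its relative Slc25a5 differed by -0.75 ± 0.20, a call lost in 2 of 6 fits that each omitted an array. Ndrg2 differed by -4.73 ± 0.26 and Sod3, the extracellular superoxide dismutase, by -4.59 ± 0.19. Fgfr1, a fibroblast growth factor receptor, differed by -4.46 ± 0.22, and its other 2 probe sets gave -2.08, called, and -0.003, not called. Bex3 (-4.19), Lbp (-3.84), which binds bacterial lipopolysaccharide, Acy1 (-3.82), an aminoacylase, and Cnn1 (-3.77), the calponin of smooth muscle, followed. Cd48 (-3.58), Pla2g4a (-3.56), a cytosolic phospholipase, and Pcp4 (-3.54), a calmodulin regulator, completed the 15.

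Enzymes of glutathione and antioxidant defence were more often higher than lower in FRT/TSHR. Of 33 measured 16 were called higher and 4 lower, with a median of 0.62. That is 60.6% called, against 23.1% of all genes. Gstm5, a glutathione transferase, read 4.70, 4.65 and 4.55 in FRTL5 and 9.12, 8.28 and 8.57 in FRT/TSHR. Gstp1, another of these enzymes, read 8.29, 9.20 and 8.97 in FRTL5 and 12.09, 12.38 and 11.67 in FRT/TSHR. In both, whose windows are printed above, FRT/TSHR was higher in every array, by 4.02 ± 0.18 and 3.22 ± 0.23. Nqo1, a quinone reductase, was higher by 3.63 ± 0.37, Gsta3 by 3.01 and Hmox1, heme oxygenase, by 2.68. Gsta4, a transferase of the same family as Gsta3, was lower, at -2.31. Whether 1 probe set reads several transferases of a class was not tested. Gpx2, a glutathione peroxidase, differed by 1.40 ± 0.18 at 17 h and 2.75 ± 0.18 at basal. Its change of -1.35 ± 0.26 was called (adjusted p = 0.0233) and lost in 7 of 12 fits that each omitted an array.

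Matrix genes, integrins and matrix proteases went both ways, 11 of 35 higher and 8 lower, with a median of -0.07. That is 54.3% called, against 23.1% of all genes. Plat, tissue plasminogen activator, read 4.67, 4.49 and 4.31 in FRTL5 and 7.30, 7.92 and 9.04 in FRT/TSHR. FRT/TSHR was higher in every array, by 3.6 ± 0.33. Itgb4 and Lama3, an integrin and a laminin chain of epithelial anchoring, were higher by 2.61 and 2.6. Timp3, a metalloprotease inhibitor, read 6.94, 9.65 and 9.54 in FRTL5 and 5.53, 5.49 and 5.06 in FRT/TSHR. FRTL5 was higher in every array, least so in array 1, and the difference was -3.35 ± 0.72 (adjusted p = 0.00263). Of 24 genes of lysosomal proteases and endocytosis 8 were lower and 3 higher, or 45.8% called. Ctsc, a cathepsin, and Ppt1, a lysosomal thioesterase, were lower, at -2.0 and -1.11. Among 21 genes of MHC class I and the interferon response 5 were lower and 3 higher, or 38.1% called. The lower calls of Stat2, B2m, Psmb9 and RT1-CE16 were lost in 4, 3, 3 and 1 of 6 fits that each omitted an array. Irf7, an interferon regulatory factor, was lower, at -1.13 ± 0.12, and Cxcl10, a chemokine, higher by 2.29 ± 0.46.

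Immediate early genes, which respond within minutes to growth signals, were called higher in 11 and lower in 2 of 30 cases. That is 43.3% called, against 23.1% of all genes. Without the FRTL5 arrays numbered 1 the counts were 10 higher and 5 lower. Ier3 was higher by 3.09 ± 0.24, Id2 by 2.75 ± 0.37, Myc by 2.55 ± 0.24 and Fosl1, an AP-1 subunit, by 2.27 ± 0.42. Egr1, a zinc finger factor, differed by -0.70 ± 0.58 and was not called (adjusted p = 0.494). Of 16 G1 cyclins, partners and inhibitors 8 were higher and 0 lower by limma (2 lower at an unadjusted p under 0.05), or 50% called. The counts were 6 higher and 1 lower without those arrays. Ccng1 and Cdk5 were higher by 1.21 and 1.08.

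Of 40 growth factors and receptors 9 were higher and 5 lower, or 35% called against 23.1% of all genes. Without the FRTL5 arrays numbered 1 the counts were 7 higher and 8 lower. Gdf15, a member of the TGF-beta family, read 4.58, 5.38 and 4.95 in FRTL5 and 8.36, 9.17 and 8.97 in FRT/TSHR. FRT/TSHR was higher in every array, by 3.86 ± 0.62, or 14.5-fold. Tgfb1, another member, was lower, at -1.38 ± 0.24. Of 21 chaperones and heat shock genes 6 were higher and 3 lower (42.9% called), or 9 higher and 5 lower without those arrays. The small heat shock proteins Cryab and Hspb1 were higher by 3.83 ± 0.31 and 2.94 ± 0.19, and Serpinh1, a collagen chaperone, was lower, at -1.34. Of the other 3 probe sets of Hspb1 2 were called higher. Of 25 genes of glycolysis and glucose uptake 5 were higher and 2 lower, or 28% called, near the share of all genes. The glucose transporter Slc2a1 was higher by 2.13 ± 0.21. Of 43 channels and solute carriers 6 were higher and 8 lower, or 32.6% called. The potassium channel Kcnk1 was higher by 2.01 and the water channel Aqp5 lower, at -1.63.

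Longer lists of markers of other cells held calls as well: 5.56% of the C cell, 20% of the endothelial, 15.8% of the leukocyte and 29.2% of the mesenchymal genes, against 23.1% of all genes. Of 18 C cell and neuroendocrine genes 1 was called, Ret (-0.30), and it was lost in 4 of 6 fits that each omitted an array. Of 10 endothelial genes 2 were called, the adhesion molecule Icam1 (-2.78 ± 0.21) and the peptide endothelin-1, encoded by Edn1 (1.52 ± 0.22). Of 19 leukocyte genes Cd14 (0.90 ± 0.18) was called beside Lyz2 and Ptprc. The other 2 probe sets of Ret and of Ptprc were not called. Without the FRTL5 arrays numbered 1 limma called 0 higher and 0 lower on the C cell list and 1 higher and 0 lower on the leukocyte list.

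**Figure D3:**
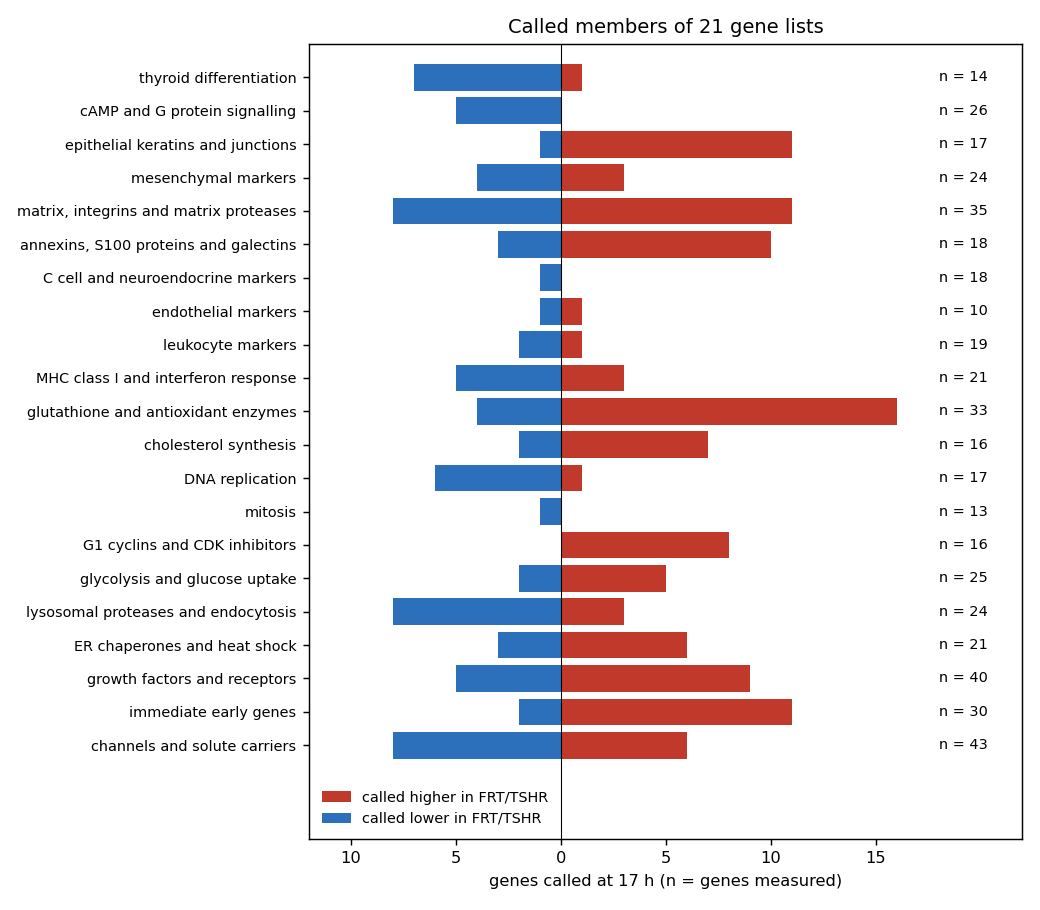
Number of genes called higher (red, to the right) and lower (blue, to the left) in FRT/TSHR at 17 h on each gene list, with the number measured at the right. The antioxidant list has 16 genes to the right and 4 to the left, against 12.8% and 10.3% of all genes.

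Most differences at 17 h were also present without hormone. The basal comparison called 2226 probe sets (25.5%). It shares no array with the one at 17 h but uses the same estimate of the spread. Same-numbered basal and 17 h arrays of a line also deviated together, as given below, so the calls at these times are not fully independent. Both times called 1433 probe sets in the same direction, which is 80.2% of the 17 h calls and 64.4% of the basal calls. Of the 791 calls of at least 2-fold this held for 742, and of the 89 of at least 8-fold for each one. At 17 h alone 341 were called and at basal alone 781, but the change between the times was called in 6 and 22 of these. Tested directly, the line difference changed in 69 probe sets (0.789%), upward in 27 and downward in 42. That count was 148 with the replicate number as a block and 22 when the 30 min arrays were left out of the fit. It was 34 and 39 without 17 h array 2 or 3 of FRTL5, and 33 and 35 without 17 h array 1 or 2 of FRT/TSHR. It was 40 without basal array 3 of FRTL5, and 42 and 37 without basal array 1 or 3 of FRT/TSHR.

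**Figure D4:**
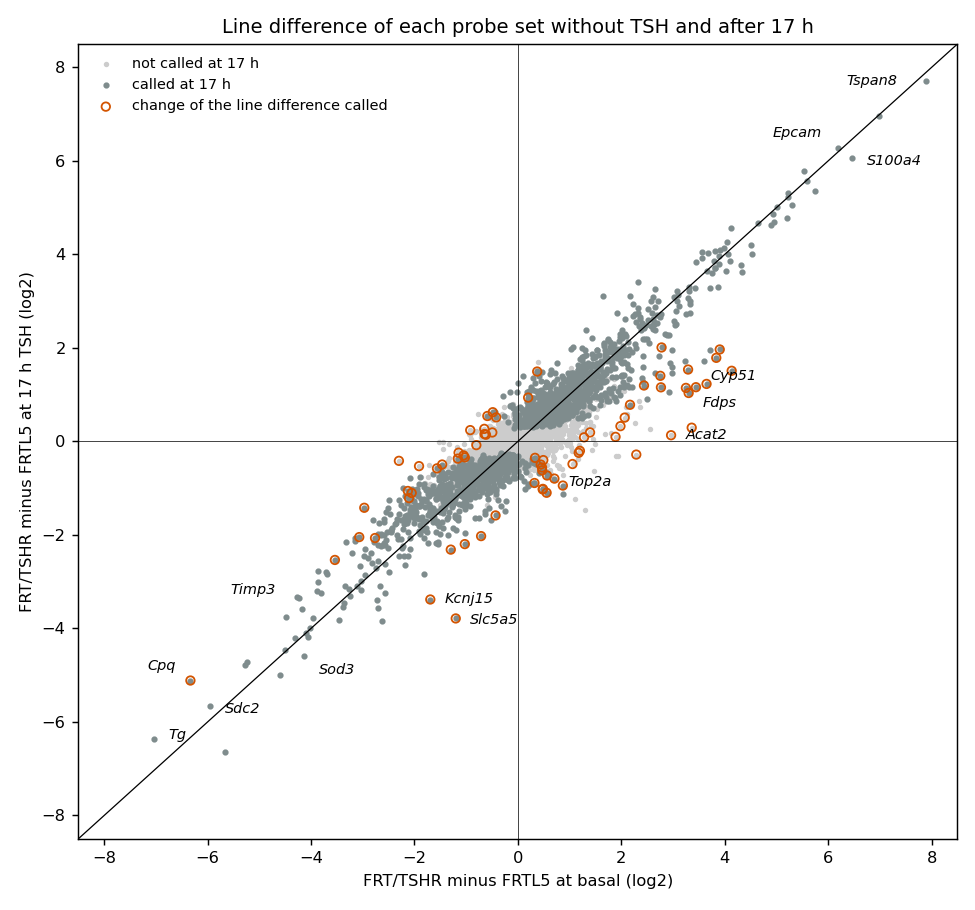
Each probe set by its line difference at basal (x) and at 17 h (y), both log2 FRT/TSHR minus FRTL5, with the line of equality, calls at 17 h in dark grey, and the 69 called changes in orange. Slc5a5 lies below the line (-1.20 at basal and -3.79 at 17 h), as do Fdps and Acat2.

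In cholesterol synthesis the median line difference was smaller at 17 h than at basal. Of 16 measured genes 7 were called higher and 2 lower at 17 h, or 56.2% called against 23.1% of all genes. Without the FRTL5 arrays numbered 1 the counts were 6 higher and 4 lower. At basal 13 were called higher and 0 lower by limma (0 lower at an unadjusted p under 0.05). The median difference was 0.43 at 17 h and 1.86 at basal, against -0.05 and -0.04 over all genes. The change was below 0 in 16 and called in 5, against 0.866% of all genes. Fdps, farnesyl diphosphate synthase, read 9.64, 10.57 and 10.14 in FRTL5 and 10.96, 11.26 and 11.24 in FRT/TSHR at 17 h. At basal Fdps had read 8.31, 8.18 and 7.87 in FRTL5 and 11.52, 11.47 and 11.28 in FRT/TSHR. FRT/TSHR was above FRTL5 in every array at both times, and every FRTL5 array read higher at 17 h than any FRTL5 array at basal. The difference was 1.03 ± 0.19 at 17 h and 3.30 ± 0.19 at basal, and the change of -2.27 ± 0.27 was called (adjusted p = 0.00139).

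Cyp51, a sterol demethylase, differed by 1.16 ± 0.26 at 17 h and 3.44 ± 0.26 at basal, with a called change of -2.28 ± 0.37 (adjusted p = 0.0104). Of its other 4 probe sets 3 were called higher at 17 h. Acat2, an acetyl-CoA acetyltransferase, read 9.48, 9.89 and 9.76 in FRTL5 and 9.07, 9.83 and 10.64 in FRT/TSHR at 17 h. The lines overlapped, and the difference of 0.13 ± 0.29 was not called, against 2.96 ± 0.29 at basal, with a called change of -2.83 ± 0.41 (adjusted p = 0.00402). Hsd17b7, a sterol reductase, turned from 0.48 ± 0.17 at basal to -1.02 ± 0.17 at 17 h (change adjusted p = 0.00746). Mvd, a decarboxylase of the pathway, had a called change of -1.66 ± 0.37 that was lost in 10 of 12 fits that each omitted an array. Idi1, Fdft1 and Insig1 were still called higher at 17 h, by 1.96, 1.82 and 1.17, and Sqle, squalene epoxidase, was lower, at -1.26. The second probe sets of Idi1 and Insig1 gave 0.33 and 0.90 and were not called.

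The line difference was also lower at 17 h than at basal in most genes of DNA replication and mitosis. Of 17 replication genes 6 were called lower and 1 higher at 17 h, and 1 lower and 10 higher at basal, with medians of -0.31 and 0.99. At 17 h 41.2% of replication and 7.69% of mitosis genes were called, against 23.1% of all genes. Of 13 mitosis genes 1 was called lower and 0 higher at 17 h by limma (1 higher at an unadjusted p under 0.05), or 1 higher and 1 lower without the FRTL5 arrays numbered 1. At basal 9 mitosis genes were called, each higher in FRT/TSHR. Each list had 2 called changes. Tyms, thymidylate synthase, read 5.39, 5.40 and 5.26 in FRTL5 and 4.20, 4.62 and 4.56 in FRT/TSHR at 17 h. At basal Tyms had read 4.60, 4.22 and 4.41 in FRTL5 and 4.83, 4.85 and 4.51 in FRT/TSHR. At 17 h FRTL5 was higher in every array, with a difference of -0.89 ± 0.14, and the basal difference of 0.32 ± 0.14 was not called. The change of -1.21 ± 0.20 was called (adjusted p = 0.0111).

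Rpa2, a subunit of the complex that binds single-stranded DNA, differed by -1.38 ± 0.28 at 17 h, and its partner Rpa3 by 1.47 ± 0.39, the latter lost in 1 of 6 fits that each omitted an array. Cdk1, the mitotic kinase, differed by 0.10 ± 0.26 at 17 h and 1.89 ± 0.26 at basal. Its change of -1.79 ± 0.36 was called (adjusted p = 0.0306) and lost in 9 of 12 such fits. Top2a, a topoisomerase, differed by -0.80 ± 0.23 at 17 h and 0.71 ± 0.23 at basal. Its 17 h call was lost in 4 of 6 such fits, and its other 2 probe sets were not called. Tubb5, a tubulin named here for the size of its change, turned from 0.87 ± 0.24 to -0.94 ± 0.24. Its 17 h call was lost in 2 of 6 such fits. Its second probe set gave -0.72 at 17 h and was not called.

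**Figure D5:**
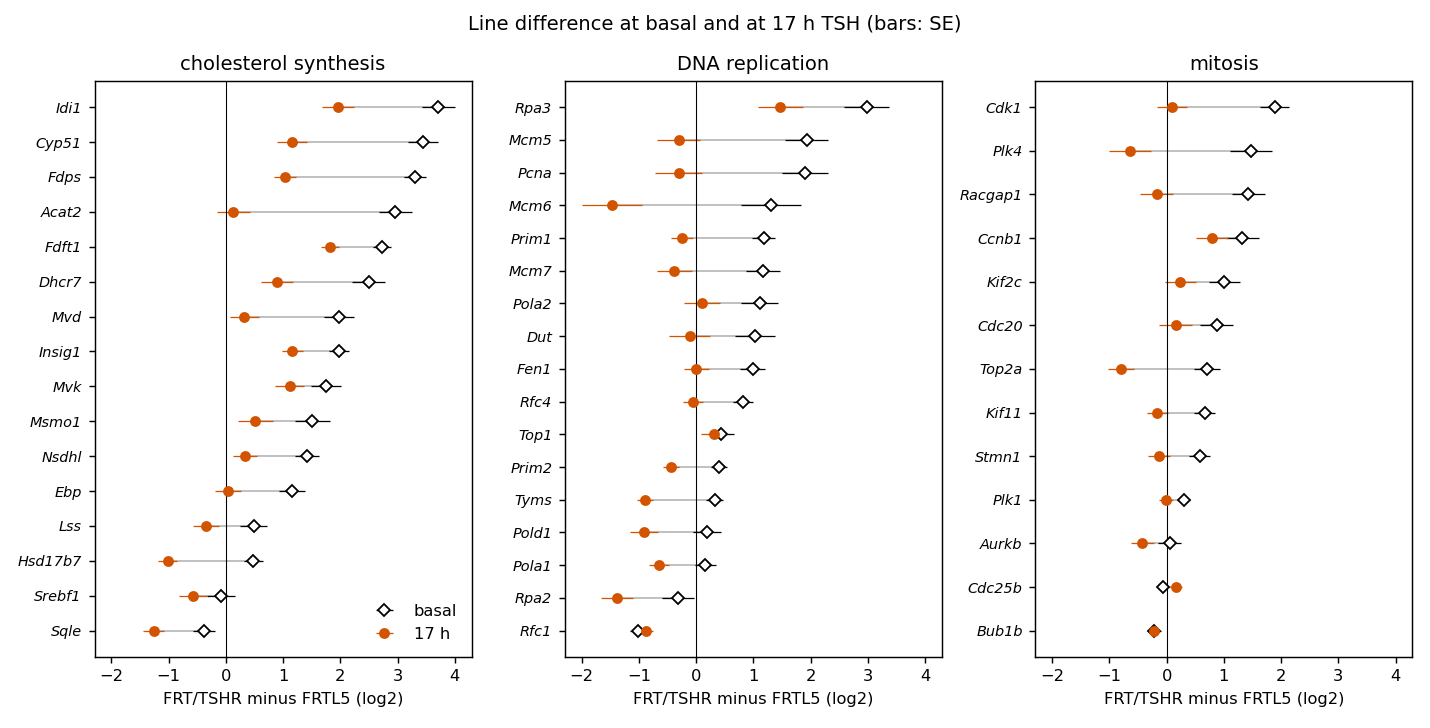
Line difference at basal (open diamonds) and at 17 h (orange dots), log2 FRT/TSHR minus FRTL5 with SE, for every measured gene of 3 lists. The 17 h value is the lower one in 16 of 16 cholesterol genes, 16 of 17 replication genes and 12 of 13 mitosis genes.

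Single genes outside these lists changed as well. Dnmt1, the maintenance DNA methyltransferase, read 7.51, 8.29 and 8.02 in FRTL5 and 6.39, 7.0 and 7.13 in FRT/TSHR at 17 h. FRTL5 was higher in every array, with a difference of -1.10 ± 0.23, while its second probe set gave -0.45 and was not called. The basal difference of 0.56 ± 0.23 was not called, and the called change was lost in 7 of 12 fits that each omitted an array. Ddah1, which breaks down methylated arginine, differed by 1.16 ± 0.21 at 17 h and 2.77 ± 0.21 at basal. Mthfd1, a folate enzyme, turned from 0.56 ± 0.16 to -0.73 ± 0.16. Btg1, an antiproliferative gene, turned the other way, from -0.59 ± 0.13 at basal to 0.54 ± 0.13 at 17 h, while its second probe set gave 0.58 at 17 h and was not called. In all 12 probe sets were called in opposite directions at the 2 times, and the change was called in 11 of them.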

How the data were processed

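RNA of the 2 lines at 3 times (basal, 30 min and 17 h of TSH; 3 replicates each) was hybridised to 1-colour rat arrays. The deposited values are log2 expression per probe set that the authors made with RMA, per the submitters' processing notes, which name no version or settings. These log2 values were used as deposited (range 2.61 to 13.58). Their precision is limited by the 3 arrays per group. Gene names came from the platform annotation: 7006 probe sets had 1 symbol, 308 several and 1426 none, and 6985 matched RefSeq GRCr8.

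All 18 arrays were fitted as 6 group means with limma 3.58.1 (lmFit and eBayes; R 4.3.3), and p-values were adjusted by Benjamini-Hochberg. The contrasts were the line difference at 17 h, the same at basal, and the difference of the 2. In a test on simulated data with known answers for the 17 h comparison, 83 of 100 probe sets changed by 1 (log2) and 99 of 100 changed by 2 were recovered, with 8 false calls. The simulated noise was independent between arrays, and far fewer probe sets were changed than were called here. These rates therefore may not hold for the real arrays.

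Same-numbered 17 h arrays of the lines deviated together (r = 0.32, 0.402 and 0.184). These values met the rule used here for pairing by number (each above 0.1). Basal FRT/TSHR arrays against 17 h FRTL5 arrays met it too, at 0.356, 0.414 and 0.32. The rule therefore does not single out the 17 h samples. Between the lines the rule was not met at basal (0.351, 0.122 and -0.003) or at 30 min (0.351, -0.116 and -0.077). Within FRTL5 the basal and 17 h arrays gave 0.69, 0.392 and 0.409, and within FRT/TSHR 0.434, 0.489 and 0.351. The main design used none of these pairs and treated the arrays as independent. The labels do not say what a number shares. The replicate block was an alternative to the main design.

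Named were the 15 largest positive and 15 largest negative called differences without overlap, up to 4 called genes per list, up to 12 called changes, and a fixed set of thyroid, epithelial and mesenchymal genes. Other list members and the genes whose difference changed sign were added after their values were seen. The comparison and the gene lists were chosen with earlier results of these data known. Lists are described by counts and medians, with no set test.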

Additional observations from a re-analysis of the deposited data

Results flagged for a closer look

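The line difference changed between basal and 17 h, by the test of that change in limma, in 21 of the genes named. It shifted downward by -2.58 for Slc5a5, -1.69 for Kcnj15 and -0.77 for Kcnk1. Among cholesterol genes it shifted by -2.83 for Acat2, -2.28 for Cyp51, -2.27 for Fdps, -1.66 for Mvd and -1.50 for Hsd17b7. Among genes of replication, mitosis and related metabolism it shifted by -1.79 for Cdk1, -1.50 for Top2a, -1.21 for Tyms, -1.81 for Tubb5, -1.65 for Dnmt1 and -1.29 for Mthfd1. It shifted by -1.61 for Ddah1, -1.35 for Gpx2, -1.54 for Rrbp1 and -0.68 for Ninj1. The shift was upward by 1.22 for Cpq, 1.13 for Btg1 and 1.88 for Tcp11l2. Of these 21 calls, 11 were lost in at least 1 of 12 fits that each omitted an array. Kcnk1, Mvd and Top2a were lost in 10 of 12, Cdk1 in 9, Ninj1 and Tcp11l2 in 8, and Dnmt1 and Gpx2 in 7. Rrbp1 and Tubb5 were lost in 4 and Ddah1 in 1.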

How the results depend on the processing

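No named difference that was called, in the design used or in the alternative, changed sign under the alternatives run. Of the named differences called in neither, 5 changed sign in 11 fits in all, namely those of Acat2, Cdk1, Mvd, Tshr and Vim at 17 h. The number of changes called between basal and 17 h was the least stable: 69 in the design used, 22 with only the arrays compared, 148 with the replicate block, and 33 to 83 when 1 array was omitted. At an adjusted p under 0.01 the number called lower at 17 h was 519 in place of 781. With the replicate block 2196 probe sets were called at 17 h, including 1785 of the 1786, and among the named genes it changed the call of Nkx2-1 alone. The other counts over all probe sets stayed within 1.5 times: the 17 h calls ranged from 1465 with low signals left out to that blocked count at the same threshold. When 1 array was omitted they ranged from 1443 to 1627. The 1465 came from fewer probe sets, those with a mean at or above the median, so it is not a like count. The alternative without the FRTL5 arrays numbered 1 was chosen after their beta-actin values were seen, and it moved several counts on gene lists by more than 1.5 times, as given beside those lists. Of 209 named 17 h calls 164 held in every fit that omitted an array, and of 21 named changes 10 did. No detection call exists in these values, so how far a low signal lies above background is unknown, and dose and medium cannot be told apart from the line.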
